A study of Mus musculus with 2 samples.

Results

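The reabsorption transporters of the kidney tubule examined here are 10 of the 32285 genes listed for each library, chosen by symbol: the sodium-glucose cotransporters Slc5a1 (SGLT1) and Slc5a2 (SGLT2), the sodium-monocarboxylate cotransporters Slc5a8 and Slc5a12, the sodium-phosphate cotransporters Slc34a1 (NaPi-IIa), Slc34a3 (NaPi-IIc) and Slc20a1 (Pit1), the sodium-proton exchanger Slc9a3 (NHE3), the sodium-bicarbonate cotransporter Slc4a4 (NBCe1) and the sodium-dicarboxylate cotransporter Slc13a3 (NaDC3). All 10 were measured. The proximal tubule takes back nearly all filtered glucose and most filtered phosphate, bicarbonate and organic acids. Carriers of the brush border use the sodium gradient that the sodium pump of the basolateral side maintains. Along the tubule, Slc5a2 belongs to the early segments and Slc5a1 to the late segment, while Slc9a3 is also known in the thick ascending limb.

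Single-cell RNA sequencing was done on postischemic kidney, with 1 library of a mouse that received the poly (ADP-ribose) polymerase inhibitor JPI-289 at 100 mg/kg and 1 library of a saline (control) mouse. Both were male C57BL/6 mice of 9 weeks with no stated genetic change, both had bilateral ischemia-reperfusion surgery, both had the injection into the peritoneal cavity just before blood flow was restored, and both were killed 24 h after surgery. No uninjured kidney was analysed here. Since there was 1 library per condition, no test was possible, and the drug cannot be told apart from any other difference between these mice or libraries.

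The control library held 38328760 unique molecular identifiers (UMIs) and the JPI-289 library 35548396. After cell calling and removal of cells with over 50% mitochondrial UMIs, 3739 control and 5048 JPI-289 cells were kept, with a median of 2064 and 1865 UMIs. The libraries shared 23 cell barcodes, where 25.6 were expected from unrelated sets. Clusters led by a marker list of the proximal tubule (PT, early, late or injured), here PT-like cells, held 1849 control and 1714 JPI-289 cells, and the 10 transporters were kept out of the genes used for clustering. Each PT-like cluster drew over 90% of its cells from 1 library, so a cluster may be a library and not a segment. The injured PT list led the cluster that held 1186 of the JPI-289 cells, with a score of 1.35 against 1.12 for the PT list. A cluster of 151 control and 3 JPI-289 cells, found among distal nephron cells and led there by the PT list, was left unnamed. Early PT-like cells numbered 207 and 202, late PT-like cells 213 and 309, and the segment of 1429 and 1203 cells was not resolved. Neither the early nor the late PT-like clusters were alike between the libraries. The late JPI-289 cluster scored 2.12 for the PT list and 1.63 for the injured PT list, and the late control cluster 3.14 and 0.252. The early JPI-289 cluster scored 0.733 and 0.836, and the early control cluster 2.9 and -0.884. In the early clusters, against the PT-like sum of the library, the early list was at 0.0898 and the late list at -0.83 in JPI-289. In control they were at 0.307 and -0.479. Genes of stress or plasma proteins led some JPI-289 clusters, with Plin2, Srxn1 and Fgb in the unresolved cells, Fgg, Fgb and Spink1 in the early ones, and Krt20 and Plin2 in the late ones. Levels are given in CPM, the UMIs of a gene per 1000000 UMIs of its class, with exact Poisson 95% intervals, and ratios are log2 of JPI-289 over control after 0.5 UMIs were added, with exact binomial 95% intervals. These intervals describe counting error alone and leave out variation among animals.

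To place the genes, RefSeq promoters of GRCm38.p6, from 250 bases before to 50 bases after the start, were found for 8 of the 10 members (10 promoters). Shown are the promoters of the members with the highest and the lowest ratio among those in the table. The promoter of Slc34a3 lies at chr2:25234185-25234484 and that of Slc13a3 at chr2:165473148-165473447, both on the minus strand.
Slc34a3: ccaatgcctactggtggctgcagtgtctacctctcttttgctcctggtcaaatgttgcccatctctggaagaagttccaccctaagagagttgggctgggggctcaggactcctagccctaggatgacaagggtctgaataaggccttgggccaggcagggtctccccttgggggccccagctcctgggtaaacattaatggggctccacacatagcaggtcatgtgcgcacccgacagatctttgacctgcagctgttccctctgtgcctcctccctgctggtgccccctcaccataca
Slc13a3: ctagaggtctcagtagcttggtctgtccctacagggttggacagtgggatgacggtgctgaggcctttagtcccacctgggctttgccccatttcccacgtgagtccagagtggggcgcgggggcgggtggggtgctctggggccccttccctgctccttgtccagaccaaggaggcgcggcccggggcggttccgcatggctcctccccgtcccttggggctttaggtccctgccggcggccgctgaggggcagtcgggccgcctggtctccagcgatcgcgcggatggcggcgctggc

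In PT-like cells, 6 of the 10 transporters were at least 2-fold lower in the JPI-289 library, against 23.6% of the 11384 genes with at least 20 UMIs. These were Slc5a1, Slc5a8, Slc5a12, Slc9a3, Slc4a4 and Slc13a3. Slc34a3 alone was at least 2-fold higher, against 9.05% of all genes, while Slc5a2, Slc34a1 and Slc20a1 lay within 2-fold. The median log2 ratio of the members was -1.79, beside -0.197 for all genes. The count of 6 lower members became 5 to 7 under the other settings tried, where the share of all genes was 18.3% to 27.2%. The count of 5 came with a gene minimum of 100 UMIs, which Slc5a1 and Slc34a3 did not reach.

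Among the glucose carriers, Slc5a2, the high-capacity transporter of the early segments (ENSMUSG00000030781, GRCm38 chromosome 7, bases 128265657 to 128272430), reached 2016 UMIs in PT-like cells of control and 1474 in those of JPI-289. Its level was 246 CPM (235 to 257) in control and 199 CPM (189 to 209) in JPI-289, a log2 ratio of -0.31 (-0.40 to -0.21). This small difference depended on which cells were counted. In early PT-like cells, where it was highest in both libraries, the level was 349 CPM in control and 384 CPM in JPI-289, a log2 ratio of 0.14 (-0.0088 to 0.28), with -0.13 to 0.61 under the other settings. In late PT-like cells it was 80.6 and 39.8 CPM, a log2 ratio of -1.02 (-1.39 to -0.65), which was -1.94 with equal weight of each cell and -0.40 with at most 20% mitochondrial UMIs. A control cluster of 222 cells led by the nuclear RNAs Malat1 and Neat1 held 579 of the control UMIs at 782 CPM, and without it the PT-like ratio was 0.049. When cells were called by total UMIs alone, which left 694 control and 389 JPI-289 PT-like cells, it was -2.20. Over all barcodes, with no cell calling, the level was 122.6 CPM in control and 123 CPM in JPI-289.

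Slc5a1, the high-affinity glucose carrier of the late segment (ENSMUSG00000011034, chromosome 5 from 33104219 to 33162870), was sparse in PT-like cells, with 37 UMIs in control and 5 in JPI-289. Of the 37 control UMIs, 30 were in late PT-like cells, against 2 in JPI-289. The late levels were 17 CPM and 0.723 CPM, a log2 ratio of -4.26 (-7.67 to -2.58). Neither library had a Slc5a1 UMI in early PT-like cells, so the late segment carried this difference. The ratio over all PT-like cells was -2.62 (-4.45 to -1.39) and ranged from -3.37 to -1.72 under the other settings.

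The highest Slc5a1 level was outside the proximal tubule. Thick ascending limb-like cells, 114 in control and 241 in JPI-289, had 71 and 91 Slc5a1 UMIs. Their levels were 107 CPM (83.8 to 135) and 90.8 CPM (73.1 to 111.5), a log2 ratio of -0.24 (-0.70 to 0.23). If all PT marker RNA in these cells were free RNA with the profile of PT-like cells, 0.108 control UMIs and 0.0298 JPI-289 UMIs would be seen. The ratio had opposite signs in the 2 clusters of the class, at 44.1 and 93.8 CPM in one and at 166 and 85.6 CPM in the other. No other named class outside the proximal tubule had more than 4 Slc5a1 UMIs in either library.

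The lactate and monocarboxylate carriers were both lower. Slc5a12, the low-affinity carrier of the early segments (ENSMUSG00000041644, chromosome 2 from 110597298 to 110647779), had 2203 UMIs in control and 32 in JPI-289 PT-like cells. The levels were 268.5 CPM (257 to 280.0) and 4.32 CPM (2.95 to 6.09), a log2 ratio of -5.94 (-6.51 to -5.46), the lowest of the 10. It was lower in early cells (-5.10), late cells (-6.13) and unresolved cells (-5.93) alike, and over all barcodes it was -5.51. Of the 1431 control UMIs in unresolved cells, 1013 were in the PT-like cluster led by Malat1 and Neat1. Without that cluster the PT-like ratio was -5.18. After each cell was thinned to 1000 UMIs, a UMI was found in 20.6% of the 1365 PT-like cells of the control and 0.432% of the 1157 of the JPI-289 library (36.9% and 1.58% before thinning). Neutrophil-like cells do not express this gene, and their thinned shares of 2.25% and 0.172% give the background. Their median depth was 1973 UMIs in control and 2037 in JPI-289, against 2195 and 1749.5 in PT-like cells. At this depth the JPI-289 shares of PT-like cells (0.14 to 1.01%) and of neutrophil-like cells (0.00435 to 0.954%) could not be told apart. At full depth the JPI-289 level was 7.41 CPM (4.05 to 12.4) in early PT-like cells and 0.615 CPM (0.0156 to 3.43) in neutrophil-like cells. In late PT-like cells of JPI-289 it was 0.723 CPM (0.0876 to 2.61), from 2 UMIs, which could not be told apart from neutrophil-like cells. The late ratio (-9.51 to -4.56) thus rests on a JPI-289 value at the background. An unnamed cluster led by Neat1 and Malat1 held 23 of the 57 UMIs in JPI-289 cells, at 22.1 CPM (14.0 to 33.2), and 19 UMIs in control, at 76.8 CPM (46.2 to 119.9). Slc5a8, the high-affinity carrier of the late segment (ENSMUSG00000020062, chromosome 10 from 88885992 to 88929515), had 175 UMIs and 53, a log2 ratio of -1.57 (-2.05 to -1.13), which was -0.86 when cells were called by total UMIs alone. In late PT-like cells its level was 83.4 CPM in control and 16.6 CPM in JPI-289, a log2 ratio of -2.32 (-2.84 to -1.84), and it had 0 and 1 UMIs in early PT-like cells.

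**Figure D1:**
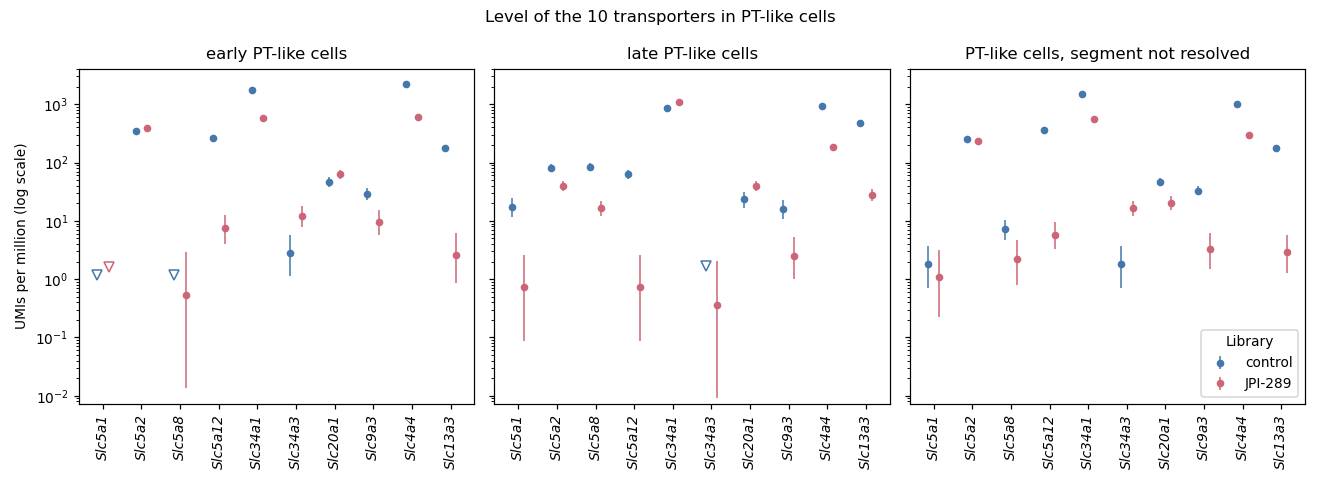
Level in CPM (UMIs scaled to the class total, log scale) of the 10 transporters in early, late and unresolved PT-like cells, with 1 point per library and exact Poisson 95% intervals; open triangles mark the level that a count of 0 allows (3 UMIs). Slc5a12 and Slc13a3 are lower in the JPI-289 library in all panels, whereas Slc5a2 overlaps in early cells and Slc34a1 is higher in the JPI-289 late cells (874 and 1109 CPM).

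The phosphate carriers did not go one way. Slc34a1, the main phosphate carrier of the brush border (ENSMUSG00000021490, chromosome 13 from 55398187 to 55415592), had 11717 UMIs in control and 5725 in JPI-289 PT-like cells, at 1428 CPM (1403 to 1454) and 772 CPM (752 to 792). Its log2 ratio of -0.89 (-0.93 to -0.84) joined segments with opposite signs. In early PT-like cells the level was 1725 CPM in control and 582.5 CPM in JPI-289, a log2 ratio of -1.57 (-1.66 to -1.47), or -0.62 when each library was clustered alone. In late PT-like cells it was 874 CPM in control and 1109 CPM in JPI-289, a log2 ratio of 0.34 (0.25 to 0.43). The control level was thus highest in the early cells and the JPI-289 level in the late ones. The late difference was not stable, since it was -0.32 with at most 20% mitochondrial UMIs per cell and 0.10 when each library was clustered alone. The share of mitochondrial UMIs was 12.7% in control and 6.46% in JPI-289 late cells, and 18.3% and 18.6% in early cells, and its part in the result was not tested. The nuclear RNA cluster of the control library had the highest level of all clusters, 5072 CPM, and without it the PT-like ratio was -0.47.

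Slc34a3, the second brush border carrier of its family (ENSMUSG00000006469, chromosome 2 from 25228898 to 25234364), was the member with a higher level. It had 14 UMIs in control and 69 in JPI-289 PT-like cells, at 1.71 CPM (0.933 to 2.86) and 9.30 CPM (7.24 to 11.8), a log2 ratio of 2.41 (1.60 to 3.39). The difference lay in early cells, with 7 and 23 UMIs, and in unresolved cells, with 7 and 45, while late cells had 0 and 1. Outside PT-like cells it had at most 1 UMI in any class. Over all barcodes it had 34 and 196 UMIs, a log2 ratio of 2.62 (2.11 to 3.21). By total UMIs alone the PT-like ratio was 1.04. Its thinned share of PT-like cells was 0.22% in control and 1.47% in JPI-289 (0.703% and 3.68% before thinning), beside 0 of 178 and 0 of 582 neutrophil-like cells, which allows shares of up to 1.69% and 0.515%.

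Slc20a1, a phosphate carrier of most cell types (ENSMUSG00000027397, chromosome 2 from 129198764 to 129211616), had 343 and 286 UMIs in PT-like cells, at 41.8 CPM (37.5 to 46.5) and 38.6 CPM (34.2 to 43.3), a log2 ratio of -0.12 (-0.35 to 0.11). Early and late PT-like cells were both higher in JPI-289, and unresolved cells were lower. Early PT-like cells had 46.5 CPM in control and 63.0 CPM in JPI-289, a log2 ratio of 0.44 (0.057 to 0.82), and late ones 23.3 CPM and 40.2 CPM, a log2 ratio of 0.78 (0.26 to 1.34). In the unresolved cells the level was 47.1 CPM in control and 20.3 CPM in JPI-289, a log2 ratio of -1.21 (-1.68 to -0.78), and 161 of the 185 control UMIs there came from the nuclear RNA cluster. Without that cluster the PT-like ratio was 0.61, and at a clustering resolution of 0.5 it was 0.89.

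With JPI-289, an unnamed cluster had more Slc20a1 UMIs than all PT-like cells together. This cluster, led by Neat1 and Malat1, with 114 control and 384 JPI-289 cells, had 25 Slc20a1 UMIs in control and 394 in JPI-289, at 101 CPM and 379 CPM. Malat1 made up 210600 CPM of this cluster in control and 225300 CPM in JPI-289. Over all barcodes Slc20a1 had 806 and 1362 UMIs, a log2 ratio of 0.87 (0.74 to 0.99).

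Slc9a3, the apical exchanger that takes up sodium against protons (ENSMUSG00000036123, chromosome 13 from 74121457 to 74169442), was lower in JPI-289 PT-like cells and higher in thick ascending limb-like cells. PT-like cells had 229 and 34 UMIs, at 27.9 CPM (24.4 to 31.8) and 4.59 CPM (3.18 to 6.41), a log2 ratio of -2.59 (-3.17 to -2.08). It was lower in early cells, with 72 and 18 UMIs, in late cells, with 28 and 7, and in unresolved cells, with 129 and 9. Of these 129 control UMIs, 84 were in the nuclear RNA cluster, and without that cluster the PT-like ratio was -2.11. Counting each cell equally gave -3.40 and a resolution of 0.5 gave -1.07, on 1973 control and 2137 JPI-289 PT-like cells.

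In thick ascending limb-like cells Slc9a3 had 57 UMIs in control and 334 in JPI-289, at 86.2 CPM (65.3 to 112) and 333 CPM (298.5 to 371), a log2 ratio of 1.94 (1.54 to 2.38). Both clusters of the class showed it, at 69.3 and 281 CPM in one and at 102 and 425 CPM in the other. At least 2-fold higher levels were found for 10.9% of the 6925 genes of this class with at least 20 UMIs and at least 2-fold lower levels for 9.33%. Of the 10 transporters, 5 passed this minimum, and Slc9a3 was the 1 past 2-fold. The ratio was 2.82 when cells were called by total UMIs alone, on 10 control cells, and 1.15 when each library was clustered alone, on 54 control and 428 JPI-289 cells. The 6 thick ascending limb markers summed to 7780 CPM in control and 10500 CPM in JPI-289, with 2 of 6 higher. Slc12a1, the sodium-potassium-chloride cotransporter that defines the segment, was at 1024 CPM in control and 105 CPM in JPI-289 in one of the clusters and at 289.6 and 152 CPM in the other. The 5 red blood cell markers summed to 1680 and 71.9 CPM, the 6 neutrophil markers to 6.05 and 42.9 CPM with 4 at 0 in control, and the 6 injured PT markers to 392 and 989 CPM, and their part in the result was not tested. Unnamed cells also held Slc9a3, with 48 UMIs in control and 113 in JPI-289, a log2 ratio of 1.26 (0.77 to 1.79). Of these, 38 and 94 were in the unnamed cluster led by Neat1 and Malat1, at 153.5 CPM in control and 90.5 CPM in JPI-289. Over all barcodes Slc9a3 had 774 and 782 UMIs, a log2 ratio of 0.12 (-0.022 to 0.27), so the sum over the kidney did not show the opposite signs of the PT-like and thick ascending limb-like cells.

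Slc4a4, the basolateral exit for bicarbonate (ENSMUSG00000060961, chromosome 5 from 88886818 to 89239653), had 11046 UMIs in control and 2466 in JPI-289 PT-like cells. The levels were 1346 CPM (1321 to 1372) and 332.5 CPM (319.5 to 346), a log2 ratio of -2.02 (-2.08 to -1.96). Early cells (-1.88), late cells (-2.32) and unresolved cells (-1.74) were close to one another, and total UMIs alone as the call gave -3.05. The thinned share of PT-like cells with a UMI was 56.8% in control and 24.9% in JPI-289 (68.7% and 43.2% before thinning), above 15.7% and 3.26% in neutrophil-like cells. The control level was highest in early cells, at 2182 CPM, which was also the order in JPI-289, at 594 CPM.

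Slc13a3, the carrier of citrate cycle intermediates (ENSMUSG00000018459, chromosome 2 from 165405028 to 165473230), had 1970 UMIs in control and 90 in JPI-289 PT-like cells. The levels were 240 CPM (229.6 to 251) and 12.1 CPM (9.76 to 14.9), a log2 ratio of -4.30 (-4.63 to -4.00). Late cells held the highest level in both libraries, 468 CPM in control and 27.9 CPM in JPI-289, and 77 of the 90 JPI-289 UMIs. Early cells had 441 UMIs in control and 5 in JPI-289, a log2 ratio of -5.91 (-7.68 to -4.82). The thinned share was 18.5% in control and 0.951% in JPI-289 PT-like cells (34.2% and 4.03% before thinning), beside 3.37% and 0% in neutrophil-like cells, where 0 of 582 allows up to 0.515%.

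**Figure D2:**
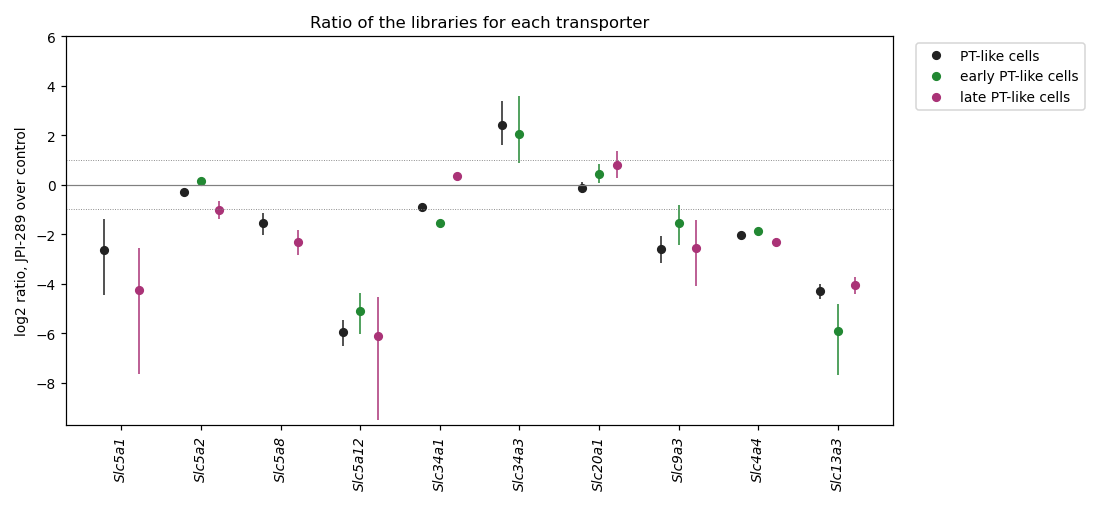
log2 ratio of JPI-289 over control (y axis) for each transporter in all, early and late PT-like cells, with exact binomial 95% intervals; values with at most 3 UMIs in both libraries are left out and dotted lines mark 2-fold. Slc5a12 lies below -5 in all of them, and the late value of Slc34a1 (0.34) lies on the other side of 0 from the early one (-1.57).

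By segment, 8 members had at least 20 UMIs in early PT-like cells. Of these, 5 were at least 2-fold lower and 1 at least 2-fold higher, against 20.2% and 10.6% of 9172 genes. In late PT-like cells 9 members passed the minimum, of which 7 were at least 2-fold lower and 0 at least 2-fold higher, against 14.7% and 17.1% of 9119 genes. Whether cell calling had a part in these comparisons was not tested. In simulated data, cells of 800 UMIs drawn from the late PT-like profile were called in 0 of 300 cases for control and in 300 of 300 for JPI-289. From the early profile they were called in 0 of 300 for each, and from the unresolved profile in 300 of 300 for control and 294 of 300 for JPI-289. Only this depth was simulated. Of the late PT-like cells kept, 27 of 213 in control and 43 of 309 in JPI-289 had under 1000 UMIs, and of the early ones 5 of 207 and 9 of 202.

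The PT markers themselves were lower in the JPI-289 library, at a sum of 9890 CPM in control and 3870 CPM in JPI-289, with 2 of 10 higher. By segment the sums were 9505 and 1970 CPM in early cells, 9332 and 5880 CPM in late cells, and 10390 and 3164 CPM in unresolved cells. The early list summed to 1330 and 457 CPM and the late list to 629 and 167 CPM. The 6 markers of injured PT summed to 294 and 1690 CPM with 5 of 6 higher. Markers of other cell types went both ways. Neutrophil markers summed to 25 and 56.9 CPM and red blood cell markers to 112 and 145 CPM. Endothelial cell markers summed to 46.1 and 17.7 CPM, macrophage markers to 8.17 and 2.16 CPM and thick ascending limb markers to 154 and 31.3 CPM. Free RNA in PT-like cells was estimated at 4.61% in control and 2.58% in JPI-289. Whether these shifts had a part in the transporters' values was not tested. In PT-like cells with a Havcr1 UMI (kidney injury molecule 1) after thinning, 94 in control and 316 in JPI-289, Slc34a1 was at 1160 CPM and 1000 CPM, and in those without one, 1271 and 841, at 1651 CPM and 606 CPM. Slc5a12 had 18 UMIs in the control cells with Havcr1 and 0 in the JPI-289 ones, and 455 and 5 in those without. The JPI-289 cluster led by the injured PT list had Havcr1 at 259 CPM. At 1000 UMIs many of its cells would have no Havcr1 UMI, so the split cannot separate injured from uninjured cells. Havcr1 itself was higher in late than in early clusters, at 361 against 41.6 CPM in control and at 803 against 216 CPM in JPI-289, so the split also sorts segments.

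Cells with several transporters were fewer in the JPI-289 library. At 1000 UMIs per cell, PT-like cells without a UMI of any of the 10 made up 20.9% in control and 38.5% in JPI-289, and those with UMIs of at least 4 made up 12% and 0.173%. Lower shares of the single transporters also lower such counts. The number expected from those shares was not computed, so this is not a result apart from the levels. In control, Slc5a2 and Slc5a12, both of early segments, were found together in 110 cells where 52.7 would be expected if unrelated. In JPI-289 it was 0 cells where 0.856 would be expected. Such an excess was not particular to genes of early segments. Slc20a1, a carrier of most cell types, was found in control with Slc5a12 in 37 cells where 13.4 would be expected and with Slc5a2 in 28 where 12.2 would be. The pairs were counted over clusters of unlike levels. The nuclear RNA cluster of the control library had Slc5a12 at 1369 CPM, Slc5a2 at 782 CPM and Slc20a1 at 217.5 CPM. The control cluster of 1178 cells had them at 131.9, 130.9 and 7.29 CPM. The part of this mixture in the pairs was not tested. Slc5a2 and Slc5a8, of early and late segments, were found together in 0 control cells where 3.56 would be expected.

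**Figure D3:**
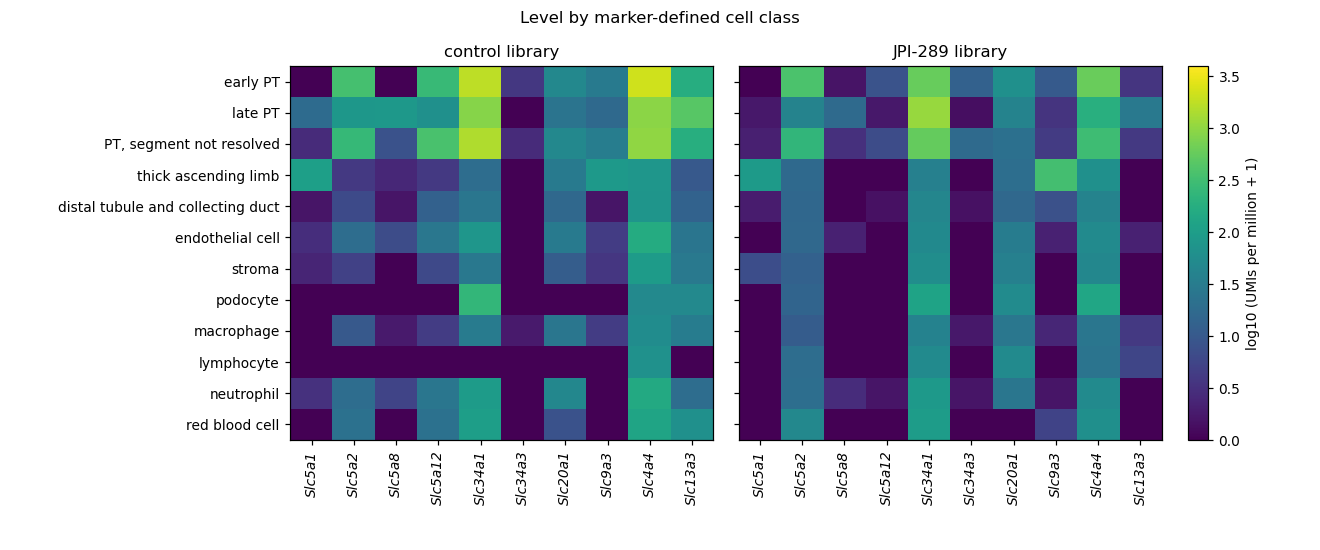
Level of the 10 transporters (columns) in 12 marker-defined cell classes (rows) of the control and JPI-289 libraries, as log10 of CPM plus 1. Slc5a1 is highest in the thick ascending limb in both libraries (107 and 90.8 CPM), and Slc9a3 is brightest there in the JPI-289 library (333 CPM).

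Outside the proximal tubule most values stood near the free RNA of PT cells. In neutrophil-like cells Slc34a1 had 42 UMIs in control and 144 in JPI-289, 0.897 and 1.48 times the number expected from PT RNA in barcodes under 100 UMIs, and Slc4a4 had 68 and 84, 0.754 and 1.25 times. Slc5a2 in endothelial cell-like cells was at 1.27 and 1.03 times. Levels of these genes in such classes are therefore read as background. Slc20a1 differed, at 11.1 and 6.08 times in endothelial cell-like cells and 18 and 11 times in macrophage-like cells, and so did Slc5a1 and Slc9a3 in thick ascending limb-like cells. Slc4a4 in the latter was at 1.41 times in control and 3.11 times in JPI-289.

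The genes most alike in level over the 24 points of 12 classes and 2 libraries are given as a description, since the points share library and depth. Cldn16, Slc12a1, Miox and Slc22a30 are in the marker lists that named the classes, so their likeness was partly set in advance. For Slc5a2 these were Igsf11 (Pearson's r of 0.944), Mettl7b (0.88) and Ddc (0.875), and for Slc5a12 Cyp24a1 (0.967), G6pc (0.944) and Gldc (0.94). For Slc34a1 they were Miox (0.972), Cda (0.963) and Folr1 (0.952), and for Slc13a3 Aspa (0.921), Fmo1 (0.912) and Cmbl (0.91). Slc5a8 was most like Bhmt2 (0.842), Slc22a30 (0.792) and Slc5a10 (0.774), and Slc4a4 like Adra2b and Dleu7 (0.899 each). Slc20a1 was most like Gmfb (0.94), Ncaph2 and Bcl2l13 (0.918 each). Slc5a1 stood with genes of the thick ascending limb, Cldn16 (0.816), Slc34a2 (0.808) and Slc12a1 (0.80), and Slc9a3 was most like Gm16685 (0.83), P2rx5 (0.821) and Gm17750 (0.807).

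Of 40 partner genes of these transporters, 37 had at least 20 UMIs in PT-like cells, of which 24 were at least 2-fold lower and 0 at least 2-fold higher, beside 23.6% and 9.05% of all genes. Among glucose partners 5 of 7 were at least 2-fold lower. Slc2a2, the basolateral glucose exit GLUT2, was at 103 CPM in control and 3.37 CPM in JPI-289, a log2 ratio of -4.91 (-5.57 to -4.36), and Pdzk1ip1, the SGLT2 accessory protein MAP17, at 987 and 136 CPM (-2.86). Slc2a1, the widely expressed glucose carrier GLUT1, was at 10.1 and 19.7 CPM (0.96), and Slc5a10, a mannose and fructose carrier, at 78.0 and 34.4 CPM (-1.18).

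Among phosphate partners 7 of 10 were at least 2-fold lower, beside 23.6% of all genes. Pdzk1, a scaffold that binds NaPi-IIa, was at 590.0 CPM in control and 46.5 CPM in JPI-289 (-3.66), and Slc9a3r1, the scaffold NHERF1 that holds both NaPi-IIa and NHE3, at 311 and 122 CPM (-1.35). Pth1r, the parathyroid hormone receptor, was at 269.9 and 56.1 CPM (-2.26), and Kl, the coreceptor of the phosphate hormone FGF23, at 83.4 and 15.1 CPM (-2.46). The paralogue of Pit1, Slc20a2, was at 33.5 and 31.4 CPM (-0.093).

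Of the carboxylate and sulfate partners, 4 of 5 were at least 2-fold lower, beside 23.6% of all genes. Slc13a1, a sodium-sulfate cotransporter, was at 505.6 and 35.2 CPM (-3.84) and Slc13a2, the apical citrate carrier NaDC1, at 47.7 and 1.21 CPM (-5.22). Slc16a1, the monocarboxylate carrier MCT1, was at 62.9 and 37.6 CPM (-0.74). In the proton and bicarbonate list 2 of 7 were at least 2-fold lower, which is near the share of all genes. These were Car2, cytosolic carbonic anhydrase, at 682 and 286 CPM (-1.25) and Car14, a membrane-bound one, at 36.7 and 5.80 CPM (-2.65). Ezr, which anchors brush border proteins, was at 362 and 384 CPM (0.083). The sodium pump's beta subunit Atp1b1 was at 1440 and 310.5 CPM (-2.21) and its regulator Fxyd2 at 3073 and 3038 CPM (-0.017). Among PT transcription factors 4 of 5 were at least 2-fold lower, beside the same 23.6%, with Hnf4a at 181 and 52.5 CPM (-1.79) and Ppara at 123 and 46.0 CPM (-1.41).

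**Figure D4:**
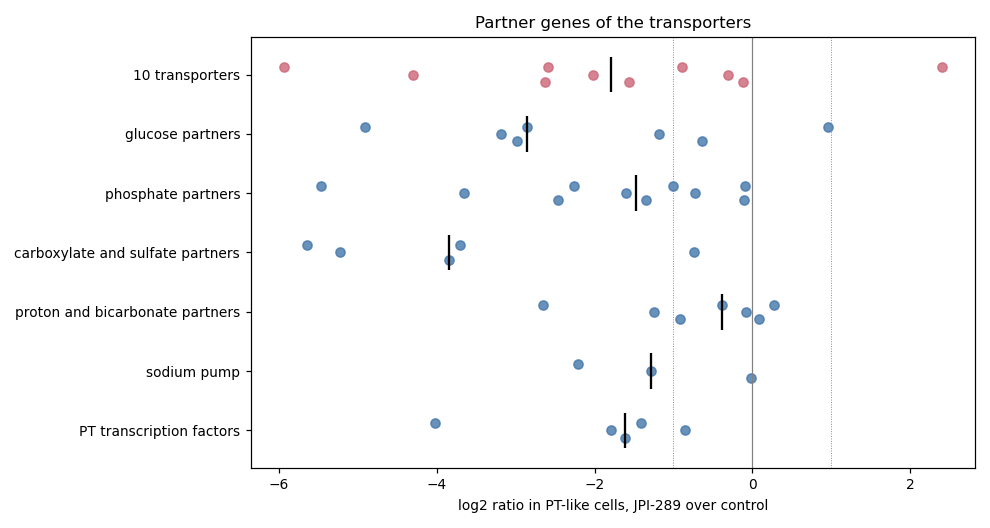
log2 ratio of JPI-289 over control in PT-like cells (x axis) for the 10 transporters and for each partner list (rows), with 1 point per gene with at least 20 UMIs and a black line at the median; dotted lines mark 2-fold. The transporters' median is -1.79, and among the partner lists no gene lies above 2-fold higher.

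Exons of Slc5a2, Slc34a1 and Slc20a1 overlap a gene on the opposite strand (BC017158, Pfn3 and 9830144P21Rik). No member has exons that overlap a gene on its own strand. How strand was used in counting is not stated in the sources used here, so whether reads of these pairs were kept apart was not checked.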

How the data were processed

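Single-cell RNA libraries of 1 control and 1 JPI-289 kidney were made with the Chromium 5′ kit. The authors aligned reads to mm10 with Cell Ranger 5.0.1 and deposited raw UMI counts for every barcode. From these counts, cells were called by total UMIs (over 3338 in control, 2618 in JPI-289) and, at 500 UMIs or more, by difference from empty droplets (barcode ranks 45000 to 90000, 10000 simulations, false discovery rate 0.01). Cells with over 50% mitochondrial UMIs were left out. Counts were scaled to 10000, log-transformed and clustered (2000 variable genes without the 10 transporters, 30 components, 20 neighbours, Leiden resolution 1). Doublets were not removed and no caller was run. A cluster was named by its leading marker list, at a mean log2 score of at least 0.75 and with 3 markers detected. Clusters led by any PT list, injured PT included, were PT-like at a PT score of at least 0.5. A cluster stayed unnamed when urothelium led, when another class had more markers among its 10 leading genes or, outside PT, when none of its own was there and its score was under 2 or its depth low. Distal nephron cells were clustered again, and those led by a list of another class stayed unnamed. A PT-like cluster was early or late when that list was above its library's PT-like sum and led the other by 0.5. These naming rules were set after the clusters were seen, and members and lists were chosen with earlier results of these data known.

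UMIs were summed per class and library. A gene needed 20 UMIs over both libraries, and past 2-fold means a log2 ratio of 1 or -1. Named are all 10 members, for each partner list the 2 genes with most UMIs and some past 2-fold, and the 3 genes most alike in log2(CPM + 1) for each member with at least 100 UMIs. Some genes that this rule names are not reported here. Slc2a1, Slc20a2 and the marker genes with values were named outside this rule, after their values were seen. Free RNA was taken from barcodes under 100 UMIs. Gene positions are from GENCODE vM21 on GRCm38. In simulated data for JPI-289 over control in PT-like cells, with 200 of 10670 genes changed, 93.5% of the changed genes had an interval around their true ratio, from 90% of genes lowered 4-fold to 100% of genes raised 2-fold. The simulated counts held counting error alone, which the intervals assume, so these shares do not cover clumping of UMIs in cells or clusters. Alternatives were the first calling step alone, 1000 UMIs per cell, 20% mitochondrial UMIs, resolution 0.5, libraries clustered alone, nuclear scaling, centring, equal cell weight, free RNA subtraction, 1 CPM added and gene minimums of 100 and 5. Clustering ran in scanpy 1.11.5 with leidenalg 0.10.2 and the intervals in scipy 1.17.1, under Python 3.11.15.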

Additional observations from a re-analysis of the deposited data

Results flagged for a closer look

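Cells left out for over 50% mitochondrial UMIs, 542 in control and 397 in JPI-289, are in none of the comparisons between cell classes and enter only the sums over all barcodes. In them Slc20a1 had 27 UMIs in control and 35 in JPI-289, a log2 ratio of 0.91 (0.15 to 1.70). It was flagged by a rule that picks members with an interval above 0 in these cells. The ratio was also above 0 over all kept cells, at 0.62 (0.46 to 0.77), and over all barcodes, at 0.87. Of the Slc20a1 UMIs in kept cells, unnamed cells held 40 of 548 in control and 399 of 899 in JPI-289. Their log2 ratio was 3.34 (2.88 to 3.86). Other classes went both ways, such as -0.12 in PT-like, 0.079 in endothelial cell-like and -0.86 in neutrophil-like cells. The sum over kept cells therefore does not show a rise in every class. In the cells over 50% mitochondrial UMIs, Slc5a12 had 106 and 1 UMIs and Slc13a3 had 99 and 1.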

How the results depend on the processing

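The members' median log2 ratio in PT-like cells was -1.79 and lay between -2.38 and -1.27 under all alternatives. The count of members at least 2-fold lower was 5 to 7, beside 18.3% to 27.2% of all genes. It was 5 with a gene minimum of 100 UMIs, where Slc5a1 and Slc34a3 had too few UMIs and the share was 18.7%. The count at least 2-fold higher was 1, beside 7.61% to 13.4% of all genes. With a gene minimum of 100 UMIs it was 0 because Slc34a3 had too few UMIs, beside 9% of all genes. Slc34a1 in late PT-like cells changed sign, to -0.32, with at most 20% mitochondrial UMIs, and Slc5a2 in PT-like cells, to 0.049, without the cluster led by Malat1 and Neat1, a setting added after seeing the data. Both causes were not tested. For both, the main interval left out 0. Ratios with 0 inside it changed sign too. Slc20a1 in PT-like cells went from -0.12 to as much as 0.89, at resolution 0.5. Slc5a2 in early PT-like cells went from 0.14 to -0.13 with equal weight of each cell. Slc5a1 in thick ascending limb-like cells went from -0.24 to 0.057 when the distal cluster led by the PT list was counted with them, a setting that was not planned. Slc5a12 stayed between -6.56 and -5.18 and Slc13a3 between -4.64 and -3.57. At resolution 0.5, and with the first calling step alone, neither the early nor the late comparison could be made. No paired analysis was possible because each condition had 1 library. Simulated cells of 800 UMIs with the early PT-like profile, or with the control late one, were not called. Differences between mice are not covered by any interval.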
